A study of Homo sapiens with 6 samples.

Results

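H3K4me3 sites with an H3K27me3 interval close by, but not on them, were taken from H1299, a human lung cancer cell line of the non-small cell type. A site was a control H3K4me3 interval of 1000 bp or more that shared no base with control H3K27me3 but had an H3K27me3 edge within 2000 bp on at least 1 side. This held for 360 of the 50585 control H3K4me3 intervals, or 2.27% of the 15838 intervals of that width (exact 95% interval 2.05 to 2.52). They are called bordered sites here. The study compared cells treated with 5 mM metformin, a biguanide given to lower blood glucose in diabetes, and untreated control cells, both at passages 10 to 15. Each condition had 1 chromatin immunoprecipitation library per mark, made from formaldehyde-fixed, micrococcal nuclease-cut chromatin. The 4 peak lists of these libraries were used; the 2 libraries of input chromatin were not analysed here.

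H3K4me3 is laid down by SET1 and MLL (KMT2) complexes and marks promoters, mostly at CpG islands. H3K27me3 is laid down by EZH2 in Polycomb repressive complex 2, which can bind the mark it makes and so extend it along the chromatin. H3K4me3 on a histone H3 tail hinders methylation of lysine 27 on the same tail, so the marks tend to lie side by side, and promoters that carry both are called bivalent. H3K4me3 next to H3K27me3 is therefore a place where the positions of the marks can be compared. Whether a site was a promoter was not analysed here. Gene names are not given, because the available gene positions are not on hg19, the build of the peak lists.

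The sites were chosen by interval width and distance between intervals in the 2 control lists, so the distances, widths and peak values of the control condition are description. The 2 metformin lists took no part in the choice, but some H3K27me3 on or near the sites in any other list follows from it. With 1 library per mark and condition there is no replicate error and no test between conditions. Intervals around shares are exact Clopper-Pearson 95% intervals over sites and cover counting error only. The peak value is the authors' own, read as −log10 q. For H3K27me3, 99.6% of the values in both lists were under 3, near the inferred calling limit, so many edges were called on weak enrichment. Metformin H3K27me3 covered 93.3 Mb and control H3K27me3 85.5 Mb, a ratio of 1.09, at length-weighted mean values of 1.68 and 1.67. Read depth is unknown, because the lists hold no counts.

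In control cells most sites faced H3K27me3 on a single side. Of the 360 sites, 166 were bordered only on the left, 152 only on the right and 42 on both sides. The nearest edge lay a median of 1133 bp away (quartiles 602 and 1567). Only 21 sites had an edge within 150 bp, about the DNA wrapped on a nucleosome. The closest site, named after its values were seen, was chr5:174904973-174908036, which was separated by 1 bp from a control H3K27me3 interval of 2601 bp. At the limit of the rule, the farthest distance inside was 2000 bp and the nearest one outside was 2004 bp. The narrowest site was 1001 bp wide, and the widest interval left out for its width was 999 bp.

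The space between a site and its H3K27me3 edge was often not empty. On 218 of 402 bordered sides (54.2%) another control H3K4me3 interval began before the edge was reached. The bordering H3K27me3 could itself lie on H3K4me3. At chr5:16936599-16937675 the control H3K27me3 interval of 200 bp lay wholly inside another control H3K4me3 interval. How often the bordering intervals overlapped H3K4me3 was not counted. Of all bordered sites, 85.6% had another control H3K4me3 interval within 2000 bp, against 89.3% of the 15170 intervals of the same minimum width that were neither bordered nor overlapped. Such neighbours are therefore common around wide H3K4me3 intervals in general.

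Bordered sites were narrower and had lower peak values than the H3K4me3 intervals of 1000 bp or more that were neither bordered nor overlapped. Their median width was 1530 bp (quartiles 1177 and 2168, range 1001 to 6158), against 1929 bp for the intervals that were not bordered. The median −log10 q was 18.8 (quartiles 11.6 and 28.8, range 2.64 to 90.2), against 25.5. Only 11 bordered sites (3.06%) reached 4000 bp, against 8.0% of the others. Both medians kept rising past the 2000 bp limit, so these traits are not particular to bordered sites. Up to 500 bp from control H3K27me3 the medians were 1322 bp and 17.5. From 2000 to 5000 bp they were 1736 bp and 23.4, and from 5000 to 10000 bp 1878 bp and 25. Sites bordered on both sides stood lowest, with a median width of 1237 bp and a median value of 12.8, against 1600 bp and 19.8 for sites bordered on 1 side.

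H3K4me3 was found again after metformin at 359 of the 360 sites (99.7%, 95% interval 98.5 to 99.99). Over all control intervals of 1000 bp or more the share was 99.8%, so this is the general behaviour of wide intervals. A median of 97.3% of each site's length was under metformin H3K4me3. The site without it, named after its values were seen, was chr12:5232694-5233709, 1016 bp wide with a control value of 6.55. Metformin H3K4me3 was held in 1 interval at 300 sites and split into 2 or more at 59 (16.4%, 95% interval 12.7 to 20.6), against 22.0% of the intervals that were not bordered (3344 of 15170).

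H3K27me3 was called on a part of these sites in the metformin list. Metformin H3K27me3 overlapped 90 of the 360 sites (25%, 95% interval 20.6 to 29.8). Over all 15530 control H3K4me3 intervals of 1000 bp or more without control H3K27me3 the share was 1.12%, and over the 15170 that were not bordered it was 0.554%. A further 170 bordered sites (47.2%, 42.0 to 52.5) were still free of H3K27me3 and had a metformin edge within 2000 bp, against a share of 2.54% over all 15530. The last 100 sites (27.8%, 23.2 to 32.7) had no metformin H3K27me3 within 2000 bp. Of the 174 control intervals that carried H3K27me3 only in the metformin list, 90 (51.7%) were bordered sites.

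Because the rule removes overlap from the control list alone, some overlap in any other list follows from the choice. The same rule was therefore applied with the conditions exchanged. It gave 603 metformin-defined sites, of which 61 (10.1%, 95% interval 7.83 to 12.8) were overlapped by control H3K27me3. Over all 16826 metformin H3K4me3 intervals of that width without metformin H3K27me3 the share was 0.666%. A control edge within 2000 bp without overlap was found at 234 of them (38.8%), against 2.19% over all 16826, and 308 (51.1%) had no control H3K27me3 within 2000 bp. Control H3K4me3 was present at 594 of the 603 (98.5%), against 99.3% of all metformin H3K4me3 intervals of that width. The share overlapped in the other list was thus 2.48 times as high for control-defined as for metformin-defined sites. Each list is a single library, so this ratio describes these libraries and carries no error between conditions. When metformin H3K27me3 was shortened to the covered length of the control list by dropping its lowest-valued intervals, the shares were 22.5% and 13.3%. This setting was chosen after the data were seen. The larger H3K27me3 coverage of the metformin list moves with the result, and its remaining part after this shortening was not tested.

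**Figure D1:**
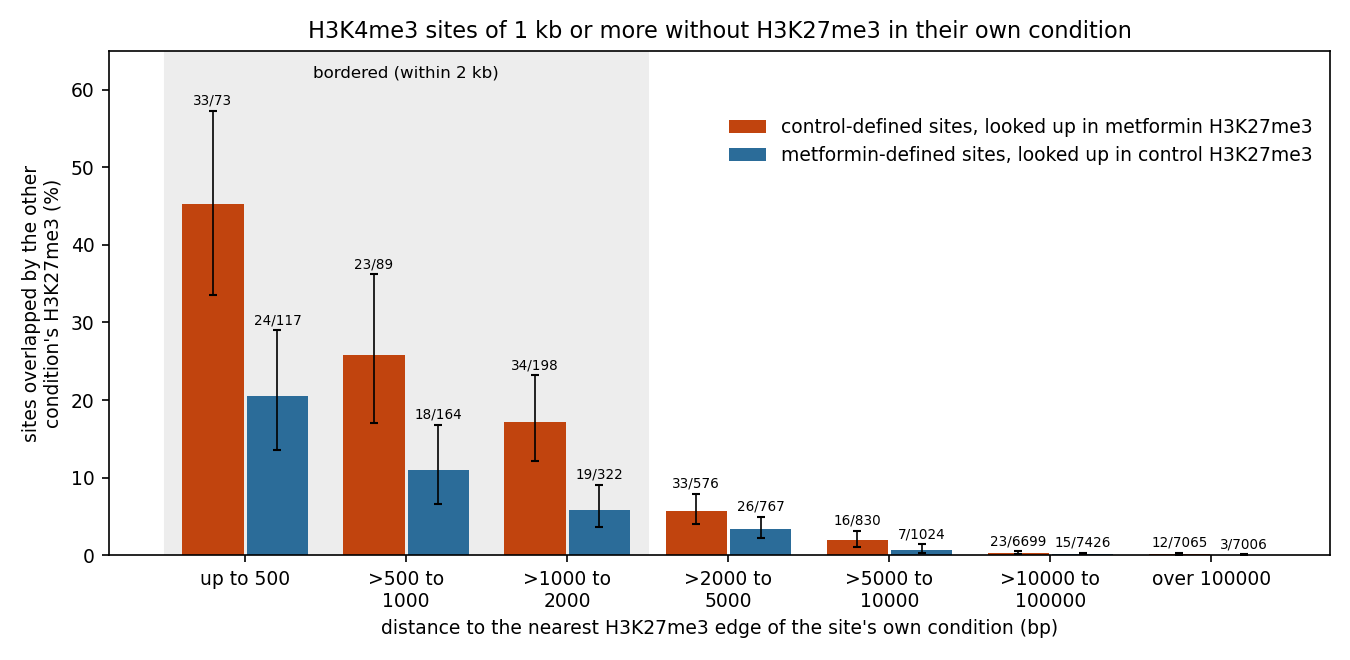
Share of H3K4me3 sites (y axis, %) overlapped by H3K27me3 of the other condition, by distance to H3K27me3 of their own condition (x axis, bp), for control-defined sites (red) and metformin-defined sites (blue). Bars carry exact 95% intervals and the numbers above them are sites overlapped and sites in the class; the share was 45.2% for control-defined sites within 500 bp and 0.170% beyond 100000 bp.

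The nearer the H3K27me3 edge had been in control cells, the more sites were overlapped after metformin. The share was 45.2% (33 of 73) where the control edge lay within 500 bp, 25.8% (23 of 89) from there to 1000 bp and 17.2% (34 of 198) between 1000 and 2000 bp. Beyond the limit of the rule it was 5.73% (33 of 576) up to 5000 bp and 1.93% (16 of 830) between 5000 and 10000 bp. The 2000 bp limit thus cuts a graded series rather than a distinct class. The same order held for metformin-defined sites in the control list, at 20.5%, 11.0% and 5.90% in the first 3 classes, lower than for control-defined sites in each. Of the 21 sites with an edge within 150 bp, 12 were overlapped and the other 9 kept an edge within 2000 bp.

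Being enclosed went with more overlap. Of the 42 sites bordered on both sides, 24 were overlapped by metformin H3K27me3 (57.1%, 95% interval 41.0 to 72.3), against 66 of 318 sites bordered on 1 side (20.8%, 16.4 to 25.6). These sites also lay closer to H3K27me3, at a median of 544 bp against 1198 bp, and the part of distance in the difference was not tested. A single site bordered on both sides had no metformin H3K27me3 within 2000 bp. It was named after its values were seen and lies at chr3:133612839-133613871, whose flanking control intervals were 461 and 259 bp long. In the exchanged look-up, 23 of 77 sites bordered on both sides (29.9%) and 38 of 526 bordered on 1 side (7.22%) were overlapped.

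Overlap was also more frequent at sites with low H3K4me3 values. It was found at 31.4% of sites with a control value under 10 (22 of 70), 32.0% from 10 to under 20 (39 of 122), 18.9% from 20 to under 40 (24 of 127) and 12.2% at 40 or more (5 of 41). Among intervals that were not bordered the shares in the same classes were 1.36%, 0.861%, 0.394% and 0.0948%. Values also differed with distance to control H3K27me3. The median value was 17.5 up to 500 bp, 16.1 from there to 1000 bp and 21 from 1000 to 2000 bp. The part of distance in the order by value was not tested. By width, the shares were 29.5% under 1500 bp, 18.3% from 1500 to under 2500 bp and 25.9% at 2500 bp or more, with no steady order. Among intervals that were not bordered they were 0.770%, 0.482% and 0.427% in the same classes, lower at larger widths.

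The metformin H3K27me3 mostly took a part of the site. At the 90 overlapped sites it covered a median of 420 bp (quartiles 269 and 739, range 9 to 2524), or 28.5% of the site's length, and 24 sites were covered to 50% or more. Summed over all bordered sites, 48587 bp of 652 kb were under metformin H3K27me3 (7.45%), against 0.117% of the length of intervals that were not bordered. In the exchanged look-up, control H3K27me3 covered 2.17% of the length of metformin-defined sites, against 0.0451% for those not bordered. At 58 of the 90 sites an H3K27me3 interval crossed an edge, at 30 it lay wholly inside the site, and at 2 it spanned the whole site. Among 36 sites bordered on 1 side and crossed at a single edge, 26 were crossed on the bordered side (72.2%, 95% interval 54.8 to 85.8). The rule places control H3K27me3 on that side, and the exchanged share was not analysed here. The lists show positions and no movement of the mark.

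H3K4me3 was still called where H3K27me3 appeared. All 90 overlapped sites kept a metformin H3K4me3 interval, and at 89 of them at least 1 base lay under both metformin marks. Of the metformin H3K27me3 bases on the sites, 88.8% were also under metformin H3K4me3. A median of 96.7% of an overlapped site's length was under metformin H3K4me3, against 98.3% at sites that were still bordered and 96.7% at sites with no H3K27me3 within 2000 bp. Bulk lists cannot show whether the marks lay on the same molecules, on different alleles or in different cells.

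**Figure D2:**
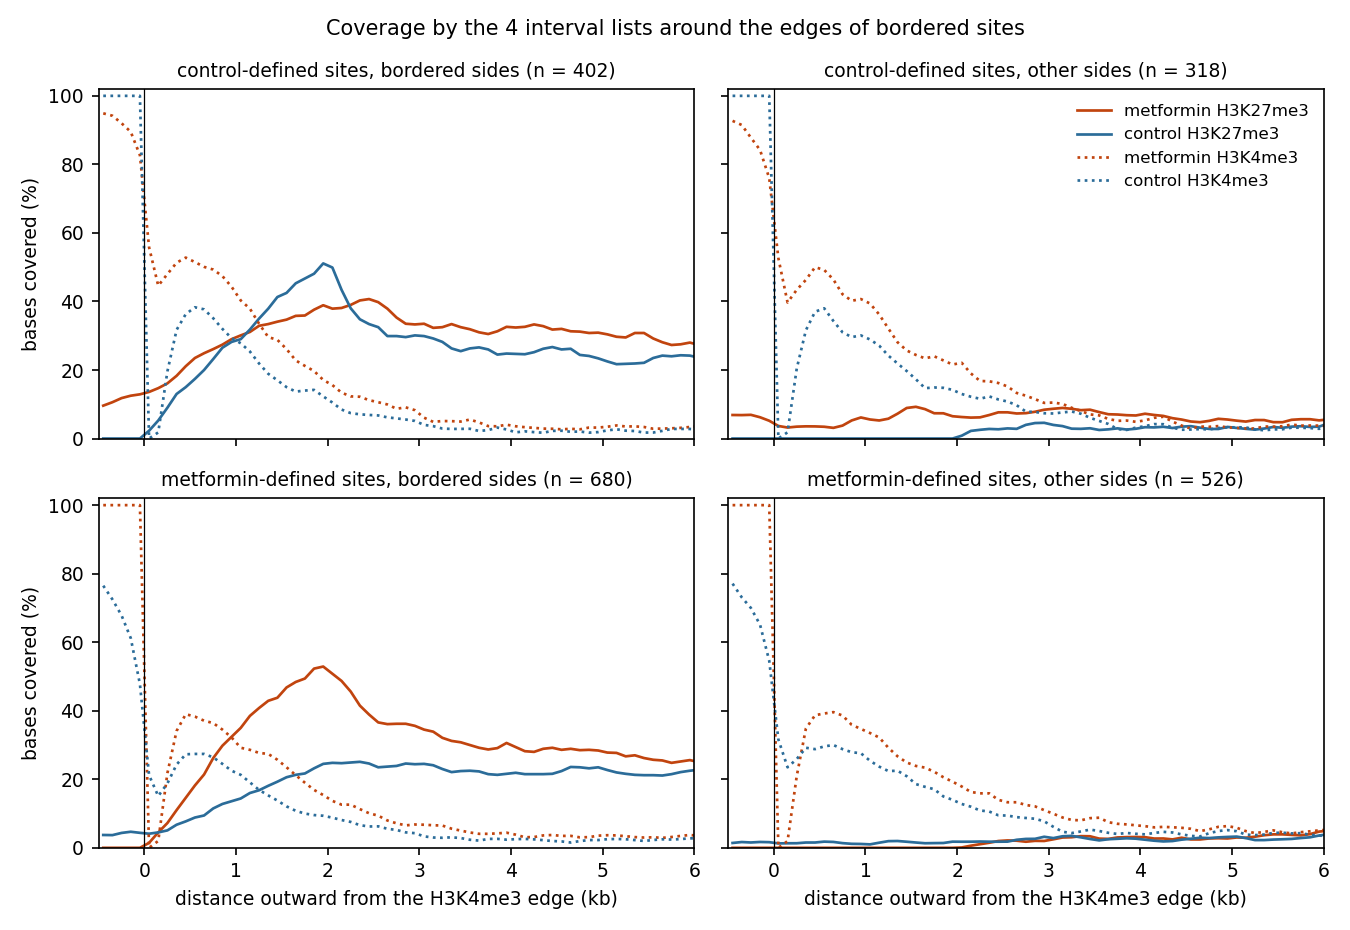
Percentage of bases covered by each list (y axis) against the distance outward from the H3K4me3 edge (x axis, kb, negative values inside the site), averaged in bins of 100 bp. Upper panels show control-defined sites and lower panels metformin-defined sites, with bordered sides left and the other sides right; red is metformin, blue is control, solid lines are H3K27me3 and dotted lines H3K4me3.

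The profile across the edges was read for both lists. The rule clears the site of control H3K27me3 and keeps control low beside it, so a higher value of any other list there follows in part from the choice. On the 402 bordered sides, metformin H3K27me3 covered 13.6% of bases in the first 100 bp outside the site and control H3K27me3 2.28%. In the last 100 bp inside the site metformin H3K27me3 covered 12.9%, while control H3K27me3 is 0 there by the rule. On the bordered sides of the metformin-defined sites, where the rule acts on the metformin list instead, metformin H3K27me3 covered 1.45% and control H3K27me3 4.12% of the first 100 bp outside, and control covered 4.38% of the last 100 bp inside. At 1000 to 1100 bp outside the control-defined sites the values were nearly equal, 30.1% for metformin and 29.0% for control, and at 1900 to 2000 bp control was the higher, at 38.9% for metformin and 51.1% for control. That peak of the control curve just within 2000 bp is made by the rule. At 5000 to 5100 bp, where the rule has no direct hold, metformin H3K27me3 covered 30.4% and control H3K27me3 22.5%. On the metformin-defined sites metformin covered 27.8% and control 22.7% there.

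Metformin H3K27me3 was also longer around these sites. Within 10 kb outside the sites it summed to 1338 kb, against 1110 kb of control H3K27me3, a ratio of 1.21, where the ratio over all of the genome was 1.09. That window includes the 2000 bp in which the rule shapes the control list, so the rule bears on the ratio. The exchanged sum was not analysed here. The median per site was 3084 bp for metformin and 2178 bp for control. The metformin sum was the larger at 214 sites and the smaller at 146. These sums count the same stretch again where sites are neighbours, which held at least for the 10 pairs of neighbouring sites within 10 kb of each other.

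**Figure D3:**
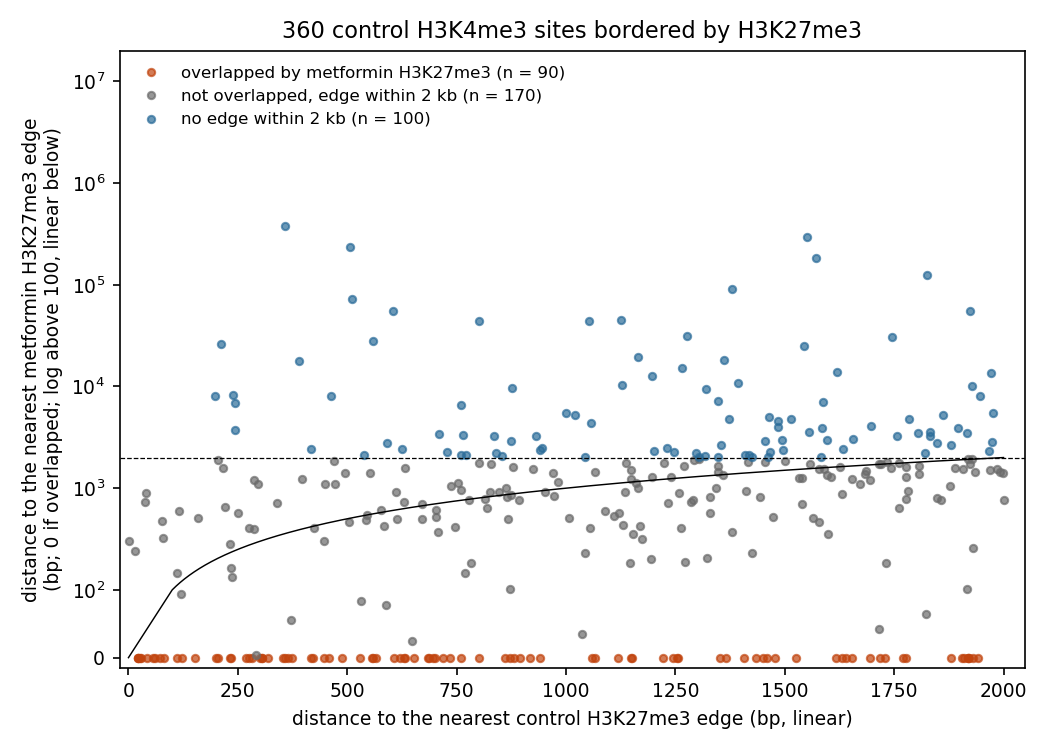
Distance of each of the 360 bordered sites to the nearest metformin H3K27me3 edge (y axis, bp, logarithmic above 100 and linear below, 0 where overlapped) against the distance to the nearest control edge (x axis, bp, linear). The curve marks equal distances and the broken line 2000 bp; the 90 overlapped sites lie along the bottom and the 100 sites above the broken line reach up to 380203 bp.

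The distance to the nearest H3K27me3 edge moved in both directions. It was shorter or 0 in the metformin list at 196 sites, longer at 162 and equal at 2. The median change was −41 bp (metformin minus control, quartiles −601 and 916, binomial 95% interval of the median over sites −149 to 1). The rule limits the control distance and not the metformin one, so the size and sign of this change are partly set by the choice, and no direction is read from it. In the exchanged look-up the control edge was farther than the metformin edge at 445 of 603 sites and nearer at 156, with a median change of 1006 bp (control minus metformin). Of the 153 sites bordered on 1 side that were still bordered, 124 kept the border on the same side alone, 19 had it on both sides and 10 only on the other side. A metformin-defined bordered site overlapped 137 of the 360 control-defined ones (38.1%), and a control-defined one overlapped 136 of the 603 metformin-defined ones (22.6%).

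Where the border was lost, the metformin edge was mostly not far. Of the 100 sites with no metformin H3K27me3 within 2000 bp, 58 had it within 5000 bp and 27 had none within 10 kb. They had faced H3K27me3 at a median of 1348 bp in control cells, against 698 bp at overlapped and 1142 bp at still bordered sites. Their median H3K4me3 value was 22.2, against 15.0 and 19.2. At 19 of the 100 a flanking control H3K27me3 interval was overlapped in the metformin list. Flanks start within 2000 bp of the site, where these sites have no metformin H3K27me3 by definition. A low count is therefore built into this class.

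The H3K27me3 intervals that formed the borders were close in size to the rest. There were 397 of them, with a median width of 674 bp (range 159 to 12183) and a median value of 1.5, against 642 bp and 1.51 over all 85579 control H3K27me3 intervals. They were found again in the metformin list more often: 247 of 397 (62.2%, 95% interval 57.2 to 67.0) were overlapped, where the share over all control H3K27me3 intervals was 48.3%. The difference was present in each class of width. Under 500 bp the shares were 44.4% (64 of 144) for flanking and 29.1% for all intervals, from 500 to under 1000 bp 55.1% and 42.9%, from 1000 to under 2000 bp 85.0% and 69.3%, and from 2000 bp 97.8% (45 of 46) and 94.1%. For metformin-defined sites, 300 of 669 flanking intervals (44.8%, 41.0 to 48.7) were overlapped by control H3K27me3, where the share over all metformin intervals was 46.3%. The higher share of flanking intervals was thus seen from the control side and not from the metformin side.

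**Figure D4:**
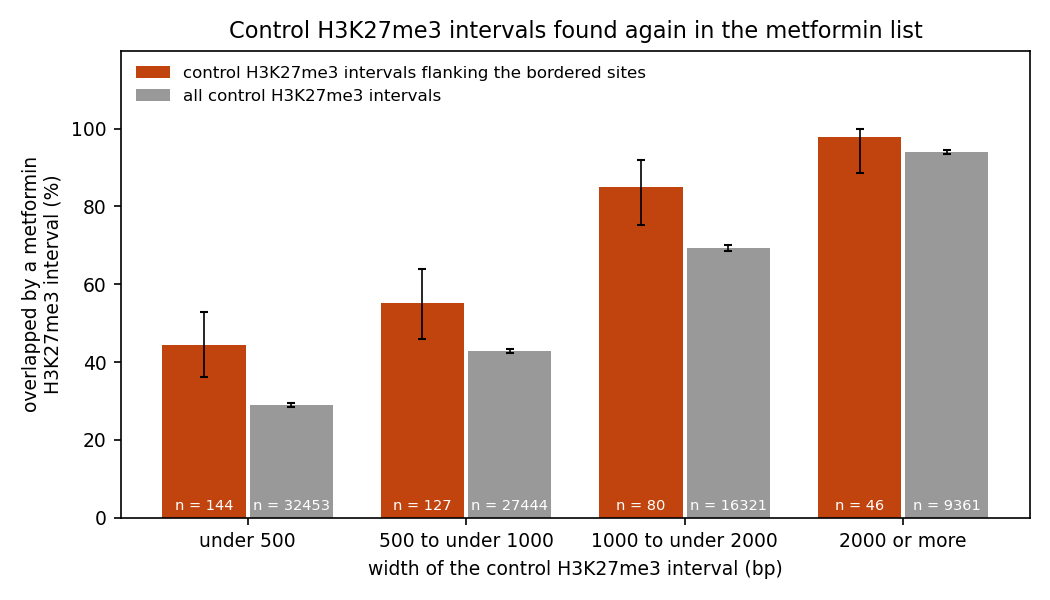
Share of control H3K27me3 intervals overlapped by a metformin H3K27me3 interval (y axis, %), by width of the control interval (x axis, bp), for the 397 intervals flanking bordered sites (red) and for all control intervals (grey), with exact 95% intervals. The flanking intervals lie higher in all 4 classes, from 44.4% against 29.1% under 500 bp to 97.8% against 94.1% from 2000 bp, where the intervals of the shares overlap.

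Part of the metformin H3K27me3 on the sites belonged to intervals that overlapped control H3K27me3 elsewhere. Of the 95 metformin intervals on bordered sites, 31 (32.6%, 95% interval 23.4 to 43.0) overlapped any control H3K27me3 interval, where the share over all metformin intervals was 46.3%. The rule keeps control H3K27me3 off the sites, which by construction lowers that share, so the shares are not compared. The 95 intervals were 897 bp long in the median with a median value of 1.58, against 687 bp and 1.5 over all metformin intervals.

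H3K4me3 itself was a little wider in the metformin list. Among 189 bordered sites where 1 control interval matched 1 metformin interval, the median width ratio (metformin over control) was 1.05, and metformin was the wider at 118 (62.4%, 95% interval 55.1 to 69.4). For 7576 matched intervals that were not bordered the ratio was 1.01, and metformin was wider at 54.1% of those that differed. The metformin-defined sites gave a ratio of 1.17 and those not bordered 1.05, so the value depends on which list chose the sites. On the bordered side the H3K4me3 edge lay a median of 22 bp farther out after metformin (quartiles −23 and 151, 207 sides) and on the other side 24 bp (−92 and 128, 171 sides). The edge lay farther out at 139 of the 206 bordered sides that differed (67.5%, 95% interval 60.6 to 73.8) and at 96 of 167 other sides (57.5%, 49.6 to 65.1). For matched intervals that were not bordered the median was 9 bp (quartiles −60 and 92, 15152 sides), with 56.9% of edges farther out. Counting the whole metformin H3K4me3 intervals at the 359 sites, 124 (34.5%) touched metformin H3K27me3 and 54 (15.0%) touched control H3K27me3. For 15139 intervals that were not bordered the shares were 0.740% and 0.0264%. The rule clears the control intervals of control H3K27me3 in both sets and places it within 2000 bp of the bordered sites, so it bears on the control shares.

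**Figure D5:**
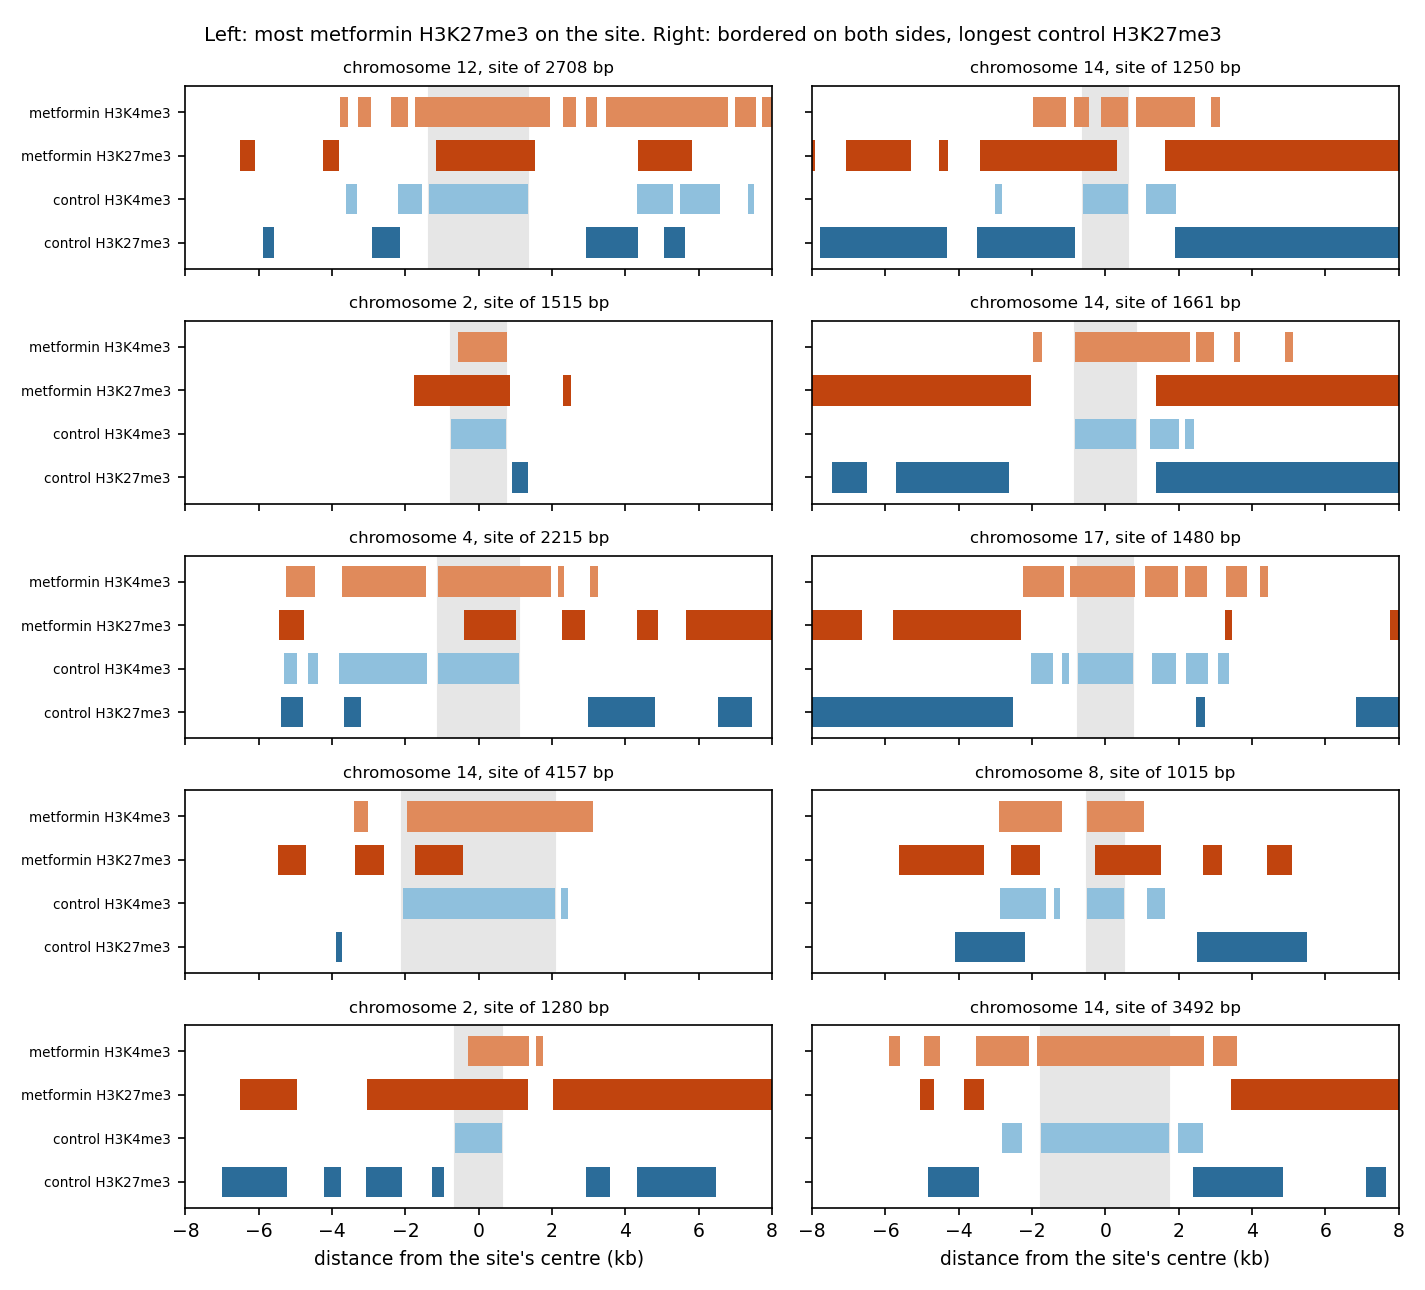
Intervals of the 4 lists within 8 kb of the centre of 10 bordered sites (x axis, kb), with metformin rows above control rows and the site shaded grey. On the left are the 5 sites with the most metformin H3K27me3, from 2524 bp down to 1280 bp, and on the right the 5 sites bordered on both sides with the longest control H3K27me3, of which 2 were overlapped after metformin.

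The sites with the most metformin H3K27me3 lay on chromosomes 12, 2, 4 and 14. At chr12:34487996-34490703, a 2708 bp site with control H3K27me3 at 801 and 1560 bp, a metformin interval covered 2524 bp (93.2%). At chr2:132766712-132768226 and chr2:42067779-42069058 the whole sites of 1515 and 1280 bp were under metformin H3K27me3, while 86.8% and 73.8% of their length stayed under metformin H3K4me3. The control edges there had been 152 and 306 bp away, at intervals of 442 and 315 bp. At chr4:8160796-8163010 (1404 bp, 63.4%) and chr14:69724650-69728806 (1304 bp, 31.4%) the metformin interval lay wholly inside the H3K4me3 site.

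Sites enclosed by the longest control H3K27me3 behaved in different ways. At chr14:81901236-81902485, between control intervals of 2685 and 7293 bp, the left H3K27me3 reached 941 bp into the site after metformin (75.3%), and at chr8:81786704-81787718, between 1902 and 3018 bp, metformin H3K27me3 covered 787 bp (77.5%). The other 3 were not overlapped within their control H3K4me3 coordinates, from which the gaps are measured. At chr14:77606161-77607821 the right-hand gap was 544 bp in metformin and 545 bp in control, and the left-hand gap 1193 bp and 1787 bp. The metformin H3K4me3 interval of that site ended 2305 bp right of the centre, and metformin H3K27me3 began at 1375 bp. The metformin marks thus overlapped there, just outside the control site. At chr14:99737334-99740825 the gaps were 1576 and 1690 bp after metformin, against 1702 and 633 bp in control. At chr17:54671357-54672836 they were 1570 and 2514 bp, against 1793 and 1742 bp, and the control interval on the right was only 246 bp long.

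The 5 sites with the highest H3K4me3 values carried no metformin H3K27me3. This was common, since 12.2% of sites with a value of 40 or more were overlapped (5 of 41) and 25% of all 360. The highest was chr6:28694201-28697991 (control −log10 q 90.2), with an H3K27me3 edge at 1003 bp in metformin and 1165 bp in control. At chr2:118846050-118848384 (62.5) the edge on the bordered side lay at 1669 bp and 1347 bp. The other 3, chr14:97263984-97266195 (67.6), chr8:48920326-48922806 (65.5) and chr6:44279445-44281807 (64.8), had their nearest metformin edge at 2262, 4752 and 2941 bp, against 1467, 1372 and 1455 bp in control.

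The 5 widest sites carried no metformin H3K27me3 within their control coordinates. Among all sites of 2500 bp or more, 15 of 58 were overlapped (25.9%), against 25% of the 360. Of the 11 sites of 4000 bp or more, 2 were overlapped, chr14:69724650-69728806 and chr16:84176281-84180728 (4448 bp). The second was named after its values were seen. The part of width in the overlap was not tested. At chr1:36102535-36108692 (6158 bp) the edge lay at 1283 bp in metformin and 1777 bp in control, and at chr7:100809054-100814425 (5372 bp) at 471 and 76 bp. At chr17:72199822-72204814 (4993 bp) the gap was 205 bp after metformin, against 1323 bp in control, and at chr7:45148028-45152675 (4648 bp) it was 1092 bp, against 471 bp. At chr8:100902199-100907117 (4919 bp) the nearest metformin edge was 7209 bp away, against 1348 bp in control.

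The sites left farthest from metformin H3K27me3 had mostly been bordered by a single short control interval. The nearest metformin edge was 380 kb from chr8:91093974-91095285, 297 kb from chr5:16936599-16937675, 237 kb from chr12:21589998-21592225, 182 kb from chr6:134211828-134213239 and 125 kb from chr15:40731610-40732952. The control intervals at these borders were 313, 200, 186, 1587 and 364 bp long. None of them was overlapped in the metformin list, which follows from choosing these sites by their metformin distance.

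Bordered sites were spread over 23 chromosomes. As a share of the H3K4me3 intervals of 1000 bp or more without control H3K27me3, they ran from 0.437% on chromosome 13 (1 of 229) to 4.07% on chromosome 20 (17 of 418). Chromosomes 8 (3.68%), 14 (3.59%), 17 (3.53%) and 9 (3.48%) followed, and chromosome 17 held the most sites, 31. Overlap by metformin H3K27me3 was found on 21 of the 23, with 10 of 28 sites on chromosome 2, 7 of 19 on chromosome 14 and 4 of 31 on chromosome 17. The sites seldom lay together: 29 pairs of neighbours were within 100 kb, and a single group held 3 sites, at chr19:42387418-42498673. In that group, named after its values were seen, 1 site was overlapped after metformin over 653 bp, 1 was still bordered and 1 had its nearest metformin edge 24862 bp away.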

How the data were processed

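Per the submitters' processing notes, reads were handled with Trimmomatic 0.38, Bowtie and MACS2 on hg19 (GRCh37); no source used here gives the options or the background library. Each deposited list belongs to 1 library and gives a chromosome, start, end, name and 1 value per line. The deposited value was read as −log10 q from the values themselves: the H3K4me3 lists start at 1.31, just above the −log10 of q = 0.05 (1.30), and the H3K27me3 lists just above 1. Sites were ranked and classed by it within a list. It was used across lists for the mean H3K27me3 values of both conditions and for the value limits among the alternatives, which were the same in both conditions.

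Lines that share an interval were joined and kept the highest value, which gave 53454 metformin and 50585 control H3K4me3 intervals from 145271 and 129595 lines, and 85952 and 85579 H3K27me3 intervals. Coordinates are 1-based. Distance is the number of bases between intervals, and overlap needs 1 bp. The distance code returned the right class and distance for 100% of 1565 simulated sites and equalled bedtools 2.31.1. Python 3.11.15, pandas 2.3.3, numpy 2.4.6, scipy 1.17.1 and matplotlib 3.10.9 were used.

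The rule for named sites takes 5 sites each by H3K4me3 value, width, H3K27me3 on both sides, metformin H3K27me3 and metformin distance. Sites and settings were chosen with earlier results of these data known. Genes and sequences were not analysed here, since the tables at hand are not on hg19. The alternatives tried are other windows, widths, value limits and overlaps, merging, and both-sided borders.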

Additional observations from a re-analysis of the deposited data

How the results depend on the processing

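No paired analysis was possible because each mark had a single library in each condition, and for the same reason no library could be left out. The lists hold no read counts, so depth limits cannot be given, and edges called near the limit of the caller may shift with depth. In all 11 alternatives the share overlapped in the other list was higher for control-defined than for metformin-defined sites, at 1.69 to 2.54 times. Merging H3K27me3 within 1000 bp cannot reach across a site of 1000 bp or more, so it tests nothing here. The values that moved follow; for each the cause was not tested beyond how the setting is built. A border window of 1000 bp left 162 sites, of which 34.6% were overlapped and 34.0% still bordered after metformin, with 14.9% overlapped in the exchanged look-up. A window of 5000 bp gave 936 sites, 13.1%, 63.8% and 6.35%. A minimum width of 500 bp gave 859 sites, 97.1% of them with metformin H3K4me3. A minimum width of 2000 bp gave 110 sites, 100% with metformin H3K4me3 and a median distance change of 35.5 bp. H3K27me3 of −log10 q 1.5 or more gave 226 sites, 100% with metformin H3K4me3, 39.8% still bordered, a median change of 130 bp and 12.8% overlapped in the exchanged look-up. With H3K27me3 of 500 bp or more, 100% had metformin H3K4me3. With borders on both sides there were 42 sites, 100% with metformin H3K4me3, 57.1% overlapped, 23.8% still bordered on both sides, a median change of −258 bp and 29.9% in the exchanged look-up. With an overlap of 200 bp or more, 19.4% were overlapped and 7.63% in the exchanged look-up. With metformin H3K27me3 shortened to the control covered length, chosen after the data were seen, the exchanged look-up gave 13.3%. The direction of the median distance change thus depends on the setting, at −258 to 130 bp.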
